A study of Homo sapiens with 4 samples.

Results

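The genes described here are 10 members of the machinery that carries a cell through G1 into S phase: the D cyclins CCND1, CCND2 and CCND3, the E cyclins CCNE1 and CCNE2, the kinases CDK2 and CDK6, and the inhibitors CDKN1B (p27), CDKN1C (p57) and CDKN2C (p18). They were picked out by gene name, with earlier results of these data known, and each had 1 row among the 57773 genes of the deposited tables. RNA came from A2780 cells, a long-cultured human ovarian cancer line labelled WT and grown in RPMI with serum, in 4 libraries. The treated group was wogonin 3 and wogonin 4, given the plant flavone wogonin at 10 ug/mL for 48 h, and the vehicle group was DMSO 1 and DMSO 2, for which no dose or time is given. The series asks whether wogonin limits ovarian cancer growth through DNA demethylation. Nothing in the labels says that the libraries of a group came from different cultures, so the p-values cover only library-to-library spread, which may be technical.

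In G1, mitogen signals raise the D cyclins, which bind CDK4 or CDK6 and start the phosphorylation of the retinoblastoma protein RB. E2F factors released from RB then switch on genes for S phase, CCNE1 and CCNE2 among them, and cyclin E with CDK2 completes the step. INK4 inhibitors such as p18 bind CDK4 and CDK6 and keep D cyclins off them, whereas the Cip/Kip inhibitors p21, p27 and p57 bind complexes of cyclin and kinase, above all those with CDK2. Many of these proteins are set by phosphorylation and degradation, which transcript levels do not measure.

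Each library held 11005921 to 11839562 exon reads. A count of 3, the floor used here, was worth 0.253 to 0.273 CPM (reads scaled to a common library size). The intron share of reads was 7.96% in wogonin 3, against 5.26% to 5.61% in the other 3 libraries, and mitochondrial genes took 3.03% of exon reads in wogonin 4, against 1.45% to 1.67% in the others. Markers of the labelled tissue were scarce. The 5 epithelial markers (KRT8, KRT18, KRT19, EPCAM, CDH1) summed to 0.277 to 1.30 TPM in wogonin and 1.46 to 1.74 TPM in DMSO libraries. The 3 ovarian ones (PAX8, WT1, MUC16) summed to 0 to 0.169 and 0 to 0.182 TPM in the same groups, with MUC16 at 0 throughout. The mesenchymal gene VIM stood at 7567 and 7648 TPM in wogonin and 8754 and 8040 TPM in DMSO. COL3A1, a collagen gene on the fibroblast list, was at 331 to 354 TPM in wogonin and 448 to 474 TPM in DMSO. COL1A1 and DCN of the same list were far lower. COL1A1 had 2.88 and 2.91 TPM in wogonin and 5.56 and 4.59 TPM in DMSO. DCN had 0.552 and 0.603 TPM in wogonin and 0.845 and 1.00 TPM in DMSO. Leukocyte and endothelial markers summed to at most 0.592 TPM in any library.

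The cyclins of G1 rose in wogonin-treated cells and the inhibitors CDKN1C and CDKN2C fell, while CDK2 and CDKN1B did not pass the test and CDK6 was at the limit of detection. Of the 10 members, 9 had enough exon reads to be tested. By the quasi-likelihood test of edgeR, with p-values adjusted by the Benjamini-Hochberg method and a threshold of 0.05, 5 of these were higher and 2 were lower, beside 32.3% of all genes tested called higher and 31.5% called lower. CDKN1C passed the filter on low counts only through the DMSO libraries, where it is high, so it could enter the test only with a difference. All genes tested had a median log2 fold change of -0.00066. Because RNA came from whole cultures, a change in the share of cells in a phase of the cycle and a change of RNA per cell cannot be told apart.

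**Figure D1:**
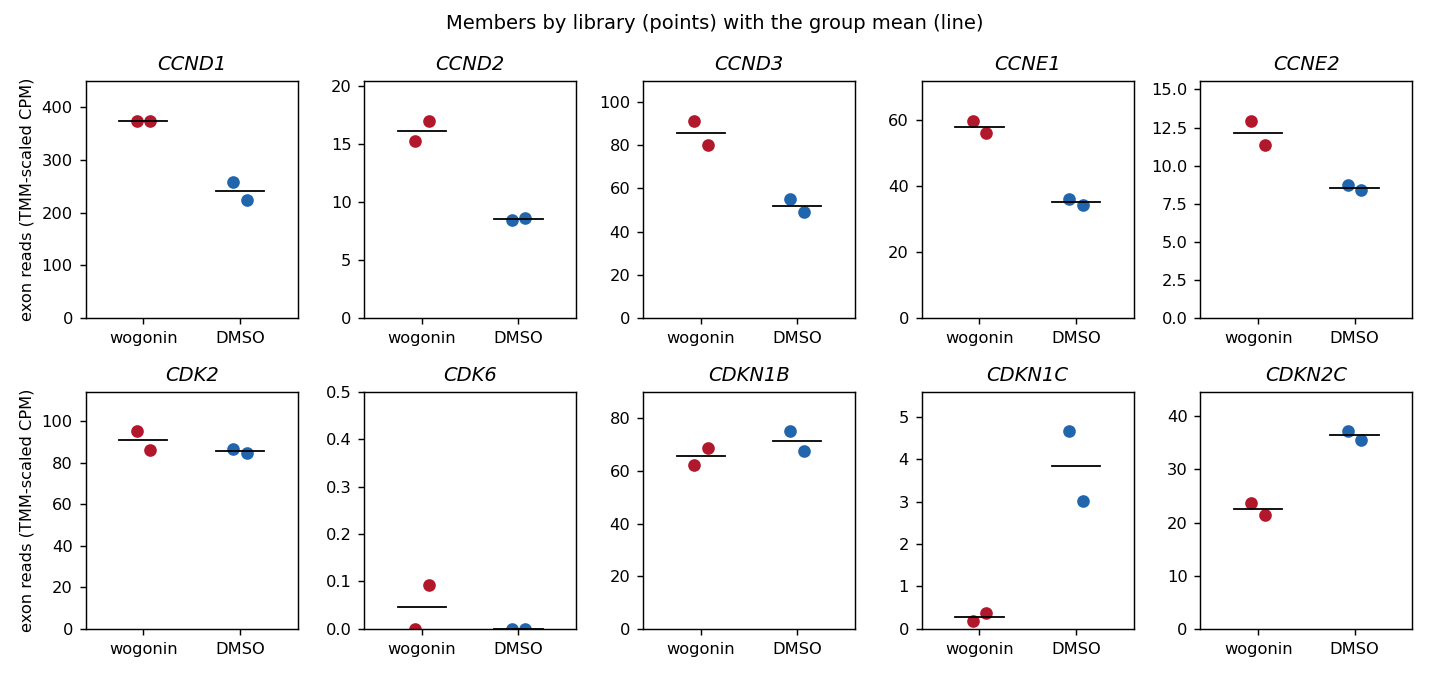
Exon reads of the 10 members in each library, as CPM scaled by TMM factors; each panel has its own vertical axis that starts at 0, points are libraries and the line is the group mean (n = 2 each). The wogonin points lie above the DMSO points for the 5 cyclins and below them for CDKN1C and CDKN2C, and CDK6 has a single read in 1 library.

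CCND1, the main D cyclin in these cells, lies on chromosome 11 (69455855 to 69469242, plus strand, ENSG00000110092); gene positions are those of the tables, on GRCh37 per the submitters' processing notes. It had 374 CPM in wogonin 3 and 374 CPM in wogonin 4, against 257 CPM in DMSO 1 and 224 CPM in DMSO 2. The groups did not overlap, and the DMSO libraries differed more from each other than the wogonin libraries did. The log2 fold change was 0.64 ± 0.06 (SE, edgeR adjusted p = 4.8e-07), a 1.55-fold rise with a 95% interval of 1.41 to 1.71. The gene overlaps ORAOV1 on the opposite strand. Between 65.4% and 68.2% of its exon reads were uniquely placed, and in those reads alone wogonin had 2713 and 2767 against 1988 and 1873 in DMSO.

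CCND2, a second D cyclin that partners the same kinases, lies on chromosome 12 (4382938 to 4414516, plus strand, ENSG00000118971). It had 164 and 185 exon reads in wogonin 3 and 4, against 100 and 106 in DMSO 1 and 2. Scaled, that is 15.3 and 17.0 CPM in wogonin, against 8.47 and 8.64 CPM in DMSO. No library of one group reached the other, and the change of 0.92 ± 0.14 log2 units (SE, edgeR adjusted p = 3.3e-05) was the highest of the 5 cyclins, though its 95% interval of 0.61 to 1.22 covers the estimates of CCND1, CCND3 and CCNE1. Of all genes tested, 7.82% had a rise at least as large.

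CCND3, the third D cyclin, lies on chromosome 6 (41902671 to 42018095, minus strand, ENSG00000112576). It had 91.3 and 80.2 CPM in wogonin, against 54.9 and 48.9 CPM in DMSO. Both treated libraries were above both vehicle libraries, and every exon read was uniquely placed. On the log2 scale it rose by 0.72 ± 0.09 (SE, edgeR adjusted p = 2.3e-06).

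Per transcript length, the 3 genes summed to 386 and 359 TPM in wogonin 3 and 4, against 275 and 246 TPM in DMSO 1 and 2, a ratio of group means of 1.43. CCND1 made up 80.0% and 81.5% of that sum in wogonin and 82.2% and 81.7% in DMSO. CCND2 made up 2.21% and 2.51% in wogonin and 1.83% and 2.12% in DMSO, and CCND3 supplied the rest. TPM carry no TMM scaling, so the ratio of 1.43 is not on the scale of the tests. The log2 ratio of CCND1 to CCND2 reads within a library, which no scaling between libraries touches, was 4.61 and 4.46 in wogonin and 4.93 and 4.70 in DMSO. The groups did not overlap, but with 2 libraries a group the smallest p that an exact permutation test can give is 0.33, and that was its two-sided value (adjusted p = 0.556 over the 5 ratios computed). The CCND1 to CCND3 log2 ratio was 2.04 and 2.22 in wogonin and 2.23 and 2.20 in DMSO, so the groups overlapped (exact permutation p = 0.667).

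CCNE1 encodes cyclin E1, the activator of CDK2 at the end of G1. It lies on chromosome 19 (30302805 to 30315215, plus strand, ENSG00000105173) and overlaps no other gene of the tables. It had 59.9 and 56.3 CPM in wogonin, against 36.2 and 34.4 CPM in DMSO. Replicates lay close together and the groups far apart. Its rise on the log2 scale was 0.72 ± 0.09 (SE, edgeR adjusted p = 2.3e-06), and all exon reads were uniquely placed.

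CCNE2, the gene of cyclin E2, is on chromosome 8 (95891998 to 95908906, minus strand, ENSG00000175305). It had 139 and 123 exon reads in wogonin, against 103 and 103 in DMSO. In scaled values that is 13.0 and 11.3 CPM in wogonin, against 8.73 and 8.39 CPM in DMSO. Both wogonin libraries lay above both DMSO libraries. The rise of 0.50 ± 0.15 log2 units (SE, edgeR adjusted p = 0.0089) passed, but the call was lost in 5 of 19 alternatives, the most of any member. The adjusted p was 0.11 with DESeq2, 0.055 and 0.070 in total and uniquely placed gene reads that include introns, 0.064 without DMSO 2 and 0.072 without wogonin 3, within a range of 0.0013 to 0.11 over all of them. It overlaps INTS8 and NDUFAF6 on the opposite strand, and 67.0% to 77.7% of its exon reads were uniquely placed.

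Per length, CCNE1 made up 88.8% and 89.5% of the summed E cyclin level in wogonin and 87.7% and 87.5% in DMSO. The sum was 105 and 92.6 TPM in wogonin, against 68.2 and 66.2 TPM in DMSO, again without TMM scaling. The log2 ratio of CCNE1 to CCNE2 reads was 2.21 and 2.31 in wogonin and 2.05 and 2.03 in DMSO, with no overlap (exact permutation p = 0.33, the smallest this design allows).

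The promoters of CCNE1 and CDKN1B are shown because these genes stand for the opposing arms, the activator of CDK2 and its inhibitor, and each has 1 start in the RefSeq table (GRCh38.p14, whereas the counts use GRCh37). Each run is the 250 bases before the start, 5′ to 3′, and capitals mark GGGCGG, the core of the GC box that SP1 binds, on either strand. The CCNE1 window is chr19:29811741-29811990 and the CDKN1B window is chr12:12717118-12717367, both on the plus strand.
CCNE1: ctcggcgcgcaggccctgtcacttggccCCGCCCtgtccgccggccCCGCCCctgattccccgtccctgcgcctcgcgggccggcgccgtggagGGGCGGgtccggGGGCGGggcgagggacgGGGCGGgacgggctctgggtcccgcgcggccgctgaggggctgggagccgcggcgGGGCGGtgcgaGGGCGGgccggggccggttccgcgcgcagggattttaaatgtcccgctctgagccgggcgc
CDKN1B: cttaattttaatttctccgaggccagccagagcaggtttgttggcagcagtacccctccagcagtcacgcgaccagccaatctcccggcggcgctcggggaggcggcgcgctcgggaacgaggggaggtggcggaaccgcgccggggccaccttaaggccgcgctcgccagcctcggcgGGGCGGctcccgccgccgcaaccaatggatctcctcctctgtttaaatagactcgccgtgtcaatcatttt

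GGGCGG occurred 7 times in the CCNE1 window and 1 time in that of CDKN1B, and 42.6% of the 35116 windows of the table held it. TTTNNCGC (an E2F-like motif), GTAAACA (FOXO), CACGTG (E-box) and TGACGTCA (CRE) occurred in neither window on either strand; they were held by 5.92%, 2.98%, 6.34% and 1.65% of all windows. Of the 10 members, 5 had windows that were searched, 10 windows in all. CCND3 and CDKN2C have 3 starts each, with 0 to 5 occurrences of GGGCGG per window in both genes, and CDK6 has 2 starts with 3 and 0. CACGTG was found in 2 of the 3 CDKN2C windows and in no other, and the remaining 3 motifs in none of the 10. A match is a string of letters, not a measured site, and a window without one says nothing about the factor.

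CDK2, the kinase that cyclin E activates (chromosome 12, 56360553 to 56366568, plus strand, ENSG00000123374), did not pass the test. It had 95.2 and 86.3 CPM in wogonin, against 86.8 and 84.8 CPM in DMSO. The groups overlapped. In total exon reads its change was 0.08 ± 0.07 log2 units (SE, edgeR adjusted p = 0.36). The 95% interval in these reads was -0.08 to 0.24, or 0.948-fold to 1.18-fold. Only 41.4% to 46.4% of CDK2 exon reads were uniquely placed, and these were 450 and 435 reads in wogonin and 424 and 448 in DMSO, the same numbers as its uniquely placed junction reads. In uniquely placed exon reads alone the log2 fold change was 0.18 (edgeR adjusted p = 0.088). Junction reads gave 0.17 (edgeR adjusted p = 0.11), with a 95% interval of 0.991-fold to 1.29-fold. The gene overlaps PMEL on the opposite strand.

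CDK6, the other kinase of the set and a partner of the D cyclins, was at the limit of detection (chromosome 7, 92234235 to 92465908, minus strand, ENSG00000105810). It had 0 exon reads in wogonin 3 and 1 in wogonin 4, against 0 in DMSO 1 and 0 in DMSO 2. A count of 0 allows up to 3 reads, or 0.253 to 0.273 CPM depending on the library, and no fold is given. CDK4, the alternative partner of the D cyclins, had 191 and 179 TPM in wogonin and 165 and 164 TPM in DMSO. It rose by 0.31 ± 0.06 log2 units (SE, edgeR adjusted p = 3.3e-04), and TSPAN31 overlaps it on the opposite strand.

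CDKN1B, the gene of p27 (chromosome 12, 12867992 to 12875305, plus strand, ENSG00000111276), stood among the more abundant members and did not pass. It had 62.3 and 68.9 CPM in wogonin, against 75.1 and 67.7 CPM in DMSO. Wogonin 4 lay above DMSO 2, so the groups overlapped on this scale, though not in TPM, where wogonin had 88.4 and 92.7 against 113 and 104 in DMSO. The log2 fold change was -0.12 ± 0.08 (SE, edgeR adjusted p = 0.21), with a 95% interval of -0.30 to 0.05. The result turned on the scaling between groups: with library totals alone the value was -0.21 (edgeR adjusted p = 0.030), and with upper-quartile scaling it was -0.21 (edgeR adjusted p = 0.030), settings that put the median over all genes at -0.09. Over 19 alternatives its adjusted p ran between 0.030 and 0.72.

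CDKN1C, the gene of p57, an imprinted inhibitor (chromosome 11, 2904443 to 2907111, minus strand, ENSG00000129757), had the lowest ratio of wogonin to DMSO among the members. It had 2 and 4 exon reads in wogonin 3 and 4, against 55 and 37 in DMSO 1 and 2. In scaled values that is 0.186 and 0.368 CPM in wogonin, against 4.66 and 3.01 CPM in DMSO. Summed over libraries, 6 reads in wogonin against 92 in DMSO give a ratio of 0.0727 with an exact 95% Clopper-Pearson interval of 0.0260 to 0.164, which covers counting error only. The edgeR adjusted p was 4.9e-06. The fitted log2 fold change of -3.73 rests on a prior count and is no bound; 32 of the 13449 genes tested had a value that low or lower, CDKN1C included. Every read was uniquely placed, and junction reads numbered 1 and 1 in wogonin and 16 and 6 in DMSO.

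CDKN2C, the gene of p18, an INK4 inhibitor (chromosome 1, 51426417 to 51440305, plus strand, ENSG00000123080), fell. It had 23.8 and 21.4 CPM in wogonin, against 37.2 and 35.6 CPM in DMSO. The spread within each group was small beside the gap. On the log2 scale the change was -0.69 ± 0.10 (SE, edgeR adjusted p = 2.1e-05), 0.620-fold with a 95% interval of 0.533 to 0.721.

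The 3 inhibitors summed to 117 and 118 TPM in wogonin 3 and 4, against 168 and 156 TPM in DMSO 1 and 2. CDKN1B made up 75.4% and 78.8% of that sum in wogonin and 67.2% and 66.9% in DMSO. CDKN2C made up 24.4% and 20.7% in wogonin and 28.2% and 29.8% in DMSO, and CDKN1C 0.245% and 0.458% in wogonin and 4.54% and 3.24% in DMSO. TPM carry no TMM scaling, so the lower sum in wogonin is not on the scale of the tests. In TMM-scaled CPM the groups of CDKN1B, the largest part, overlapped. The log2 ratio of CDKN1B to CDKN1C reads was 8.38 and 7.55 in wogonin and 4.01 and 4.49 in DMSO (exact permutation p = 0.33, the smallest possible). The CDKN1B to CDK2 log2 ratio in total exon reads, -0.61 and -0.33 in wogonin and -0.21 and -0.33 in DMSO, differed by less than the spread between libraries (exact permutation p = 0.667). Most CDK2 exon reads were not uniquely placed. Uniquely placed reads of CDKN1B were 668 and 748 in wogonin and 886 and 831 in DMSO. Those of CDK2 were 450 and 435 in wogonin and 424 and 448 in DMSO. By these counts the ratio was lower in both wogonin libraries than in either DMSO library.

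**Figure D2:**
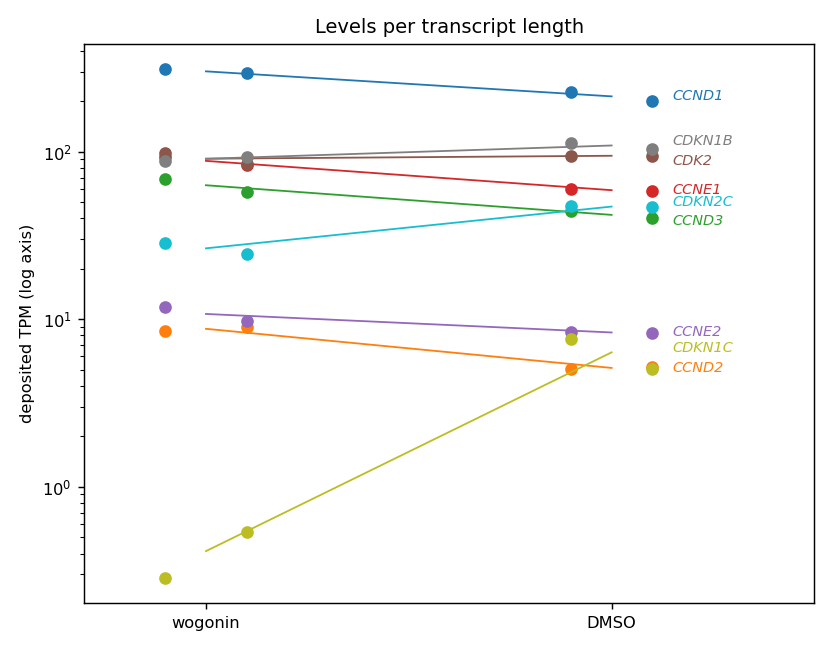
Deposited TPM of 9 members on a log axis, for wogonin (left) and DMSO (right) libraries; points are libraries and lines join group means. CCND1 is the highest in both groups at 301 and 213 TPM, CDKN1C drops out of the range of the others in wogonin, and CDK6, at or near 0, is not drawn.

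Per length, CCND1 was the most abundant member, at 301 ± 11.6 TPM in wogonin and 213 ± 17.8 TPM in DMSO (SD, n = 2 each). In wogonin CDK2 (90.7 ± 9.69 TPM), CDKN1B (90.5 ± 3.05 TPM) and CCNE1 (88.0 ± 7.25 TPM) came next, and their library ranges overlapped, so no order among them is given. In DMSO these genes were apart, with CDKN1B at 109 ± 6.39 TPM, CDK2 at 94.4 ± 0.244 TPM and CCNE1 at 58.8 ± 1.29 TPM. Only 41.4% to 46.4% of CDK2 exon reads were uniquely placed, so its place in either group is uncertain. CCND3 and CDKN2C changed places: CCND3 had 63.0 ± 8.10 TPM in wogonin and 41.9 ± 2.85 TPM in DMSO, and CDKN2C had 26.5 ± 2.99 TPM in wogonin and 47.0 ± 0.788 TPM in DMSO. The low members were CCNE2 at 10.7 ± 1.42 TPM in wogonin and 8.33 ± 0.113 TPM in DMSO, CCND2 at 8.76 ± 0.340 and 5.12 ± 0.142 TPM, and CDKN1C at 0.413 ± 0.178 and 6.34 ± 1.84 TPM, in the same order of groups. In DMSO the ranges of CDKN1C and CCND2 overlapped.

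Reads that cross an exon junction come from spliced RNA and are a part of the exon reads. In these, 4 of 8 members tested were higher (background 27.6%) and 0 were lower (background 28.0%; 0 also at an unadjusted p under 0.05, edgeR, the single tool run on these reads). CCND1 had 618 and 632 junction reads in wogonin, against 452 and 389 in DMSO (log2 fold change 0.73, edgeR adjusted p = 1.4e-06). CCNE1 had 437 and 435 in wogonin, against 291 in each DMSO library (log2 fold change 0.74, edgeR adjusted p = 1.7e-06). CCND3 and CCNE2 also rose. CCND2, with 16 and 12 junction reads in wogonin and 9 and 10 in DMSO, did not pass (log2 fold change 0.71, edgeR adjusted p = 0.18), nor did CDKN2C, with 33 and 27 in wogonin and 51 and 36 in DMSO (log2 fold change -0.38, edgeR adjusted p = 0.26). CDKN1C had too few junction reads to be tested.

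Intron reads, a readout of unspliced RNA that the exon counts do not contain, were few for these genes, and 5 members could be tested. Of these, 1 was lower (background 8.81%) and 0 were higher (background 11.3%; 0 also at an unadjusted p under 0.05, edgeR, the single tool run). CDKN2C had 7 and 2 intron reads in wogonin, against 13 and 12 in DMSO (log2 fold change -1.78 ± 0.56, SE, edgeR adjusted p = 0.035), a call lost without either DMSO library (adjusted p = 0.38 without DMSO 1 and 0.31 without DMSO 2), without wogonin 4 (0.10) and with the exon totals and factors as scale (0.19); over 7 alternatives it ran between 0.025 and 0.38. CDKN1B had 17 and 37 intron reads in wogonin, against 47 and 60 in DMSO (log2 fold change -1.22 ± 0.42, SE, edgeR adjusted p = 0.053). Here the treated libraries disagreed: the value was -2.27 without wogonin 4 (edgeR adjusted p = 5.5e-10) and -0.53 without wogonin 3 (edgeR adjusted p = 0.16), within 5.5e-10 to 0.25 over 7 alternatives. Wogonin 3 is the library with the highest intron share over all genes, and its CDKN1B intron count is the lowest of the 4; the part of that share in the result was not tested.

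Of the cyclins that rose in exon reads, 3 could be tested in intron reads and none passed there in either direction. CCND1 had 18 and 15 intron reads in wogonin and 20 and 9 in DMSO, with a 95% interval of the log2 fold change of -1.12 to 0.87. CCND3 had 15 and 12 in wogonin and 13 and 16 in DMSO, with an interval of -1.34 to 0.52, and CCNE2 had 14 and 12 in wogonin and 15 and 13 in DMSO. CCNE2 had the highest intron share of the 3 (8.89% to 12.7% of its reads). It overlaps 4 genes on the opposite strand, whose reads cannot be told apart from its own intron reads. The intervals of CCND1 and CCNE2 (-1.36 to 0.54) held the rise seen in exon reads, and that of CCND3 did not. The SE in intron reads was 0.47 for CCND1, 0.44 for CCND3 and 0.45 for CCNE2. At these counts a rise of the size seen in exon reads could be missed for all 3. In the test of the exon change against the intron change, 0 of 5 members passed (background 10.9%; 2 at an unadjusted p under 0.05, CCND3 and CDKN1B, edgeR). For CCND3 the exon change exceeded the intron change by 1.12 ± 0.44 log2 units (SE, edgeR adjusted p = 0.11), and for CDKN1B by 1.12 ± 0.42 (SE, edgeR adjusted p = 0.096).

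**Figure D3:**
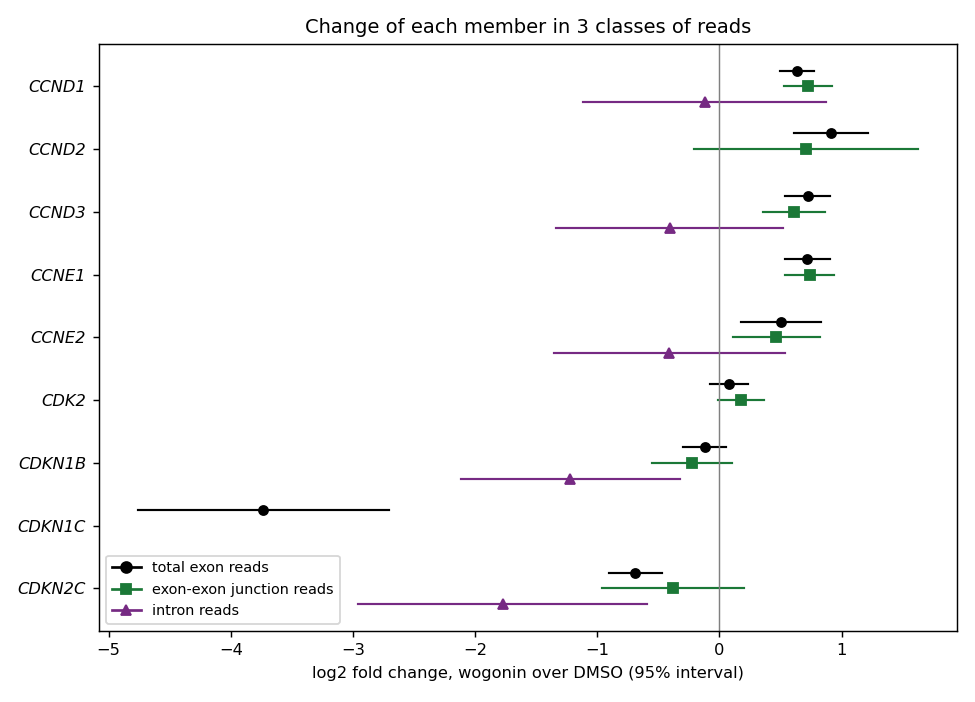
Log2 fold change of wogonin over DMSO for each member in total exon reads (circles), exon junction reads (squares) and intron reads (triangles), with 95% intervals; a missing symbol means too few reads to test. Exon and junction estimates lie on the same side of 0 for the 8 members tested in both, and intron intervals are several times wider, as for CDKN2C (-2.96 to -0.59).

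**Figure D4:**
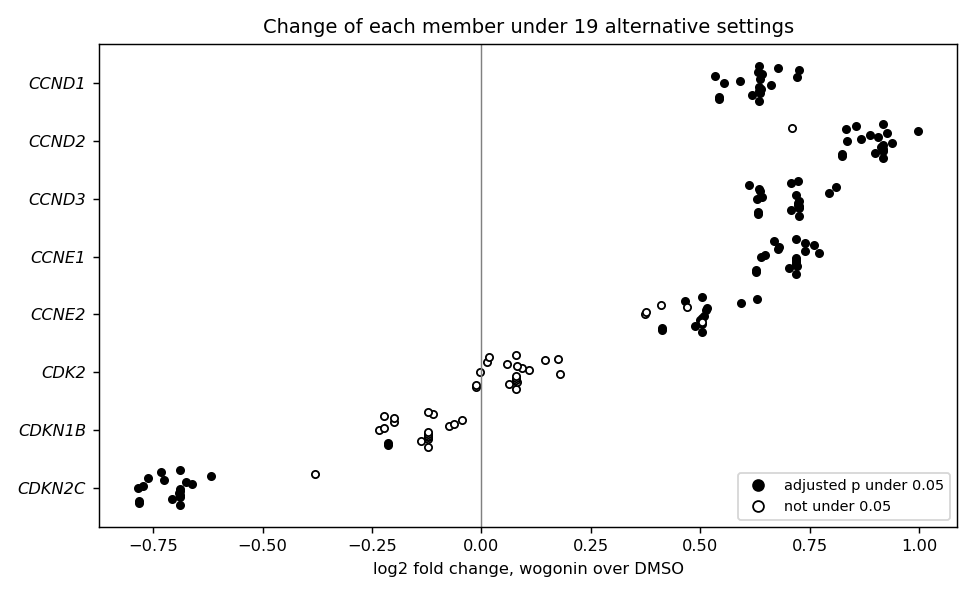
Log2 fold change of 8 members under 19 alternative settings, 1 point per setting and member, filled where the adjusted p is under 0.05; CDKN1C, at -4.29 to -3.33, lies outside the axis. CCND1, CCND3 and CCNE1 are filled in every setting, CCNE2 is open in 5, and CDKN1B is filled in 2.

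Other genes of the pathway were read from lists chosen with earlier results of these data known. Over all genes tested, 32.3% were higher and 31.5% were lower, the shares to set each list's counts against. Among 6 other G1 kinases and inhibitors, 3 rose and 1 fell, 2 missed the threshold, and the median log2 fold change was 0.24. CDKN1A, the gene of p21, had 8.02 and 7.55 CPM in wogonin, against 2.20 and 1.38 CPM in DMSO (log2 fold change 2.12, edgeR adjusted p = 3.0e-06), the reverse direction to its Cip/Kip relative CDKN1C. CDKN2A, which encodes p16 and ARF, rose by 0.53 on the log2 scale (edgeR adjusted p = 1.6e-04). CDKN2B, the gene of p15, fell by 1.39 on the log2 scale, with 13.0 and 16.7 CPM in wogonin and 41.5 and 36.7 CPM in DMSO. CDKN2A and CDKN2B both overlap CDKN2B-AS1, and most exon reads of both genes were not uniquely placed. For CDKN2B, 9 of 140 and 11 of 181 were unique in wogonin, and 47 of 490 and 27 of 451 in DMSO. In those reads alone its log2 fold change was -1.72 (edgeR adjusted p = 3.0e-04). For CDKN2A, 238 of 630 and 263 of 583 were unique in wogonin, and 198 of 499 and 167 of 438 in DMSO. In those reads alone it rose by 0.61 (edgeR adjusted p = 1.5e-04). CDKN2D, the gene of p19, had 16.6 and 16.5 CPM in wogonin and 14.9 and 14.7 CPM in DMSO, a log2 fold change of 0.16 that did not pass (edgeR adjusted p = 0.27). Of the 4 INK4 genes, 2 fell, 1 rose and 1 did not pass.

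The list of ubiquitin ligases that turn over cyclins and p27 also held enzymes that remove ubiquitin, USP2 among them. Of its 16 tested genes, 7 rose (43.8%, against 32.3% of all genes tested) and 3 fell (18.8%, against 31.5%), with a median of 0.13. Of the 3 that fell, USP2, named after its values were seen, passed the filter only through the DMSO libraries. With DESeq2 4 of the 16 rose, near the 26.0% of all genes, and 0 fell, against 23.8% of all genes (1 was lower at an unadjusted p under 0.05). With library totals alone 3 rose and 3 fell, against 27.2% and 37.0% of all genes. SKP2, the receptor that marks p27 for degradation, had 92.1 and 96.0 CPM in wogonin, against 58.9 and 57.3 CPM in DMSO (log2 fold change 0.70, edgeR adjusted p = 5.3e-07). UBAC1, part of a further p27 ligase, rose by 0.59. FBXW7, the receptor for phosphorylated cyclin E, rose by 0.46 on the log2 scale (edgeR adjusted p = 0.0013).

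Among 17 tested genes of the RB and E2F list, 6 rose, 4 fell and 7 did not pass, with a median of 0.04. The shares of 35.3% higher and 23.5% lower were near those over all genes, 32.3% and 31.5%. E2F3, an activator E2F, rose to 116 and 122 CPM in wogonin, against 59.6 and 63.2 CPM in DMSO (log2 fold change 0.95, edgeR adjusted p = 1.3e-08). RBL2, the pocket protein p130, fell by 0.62 on the log2 scale, and TFDP2, a dimer partner of E2F, fell by 1.05.

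All 6 tested genes of the S and G2 list fell and 0 rose, beside 31.5% of all genes lower and 32.3% higher, with a median of -0.64 (DESeq2 called the same numbers, and 0 were higher at an unadjusted p under 0.05 by edgeR or DESeq2). CCNB2, a mitotic cyclin, had 41.9 and 41.9 CPM in wogonin, against 122 and 127 CPM in DMSO (log2 fold change -1.57, edgeR adjusted p = 7.0e-11). CCNA2, the cyclin that takes over CDK2 in S phase, had 112 and 123 CPM in wogonin, against 228 and 230 CPM in DMSO (log2 fold change -0.96, edgeR adjusted p = 2.4e-09). CCNB1 fell by 0.62. The part of this fall in the values of the members was not tested.

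Of 9 tested genes of the CDK-activating kinase and of phosphatases and kinases that act on CDKs, 2 rose (22.2%) and 4 fell (44.4%). Their median was 0.01, and over all genes tested 32.3% were higher and 31.5% lower. CDC25C, a phosphatase that activates CDK1, fell by 1.79 on the log2 scale (edgeR adjusted p = 6.5e-09), CDKN3, a phosphatase that acts on CDKs, fell by 1.49, and CDC25B fell by 1.27. The 2 that rose were CDC25A, by 1.02 on the log2 scale (edgeR adjusted p = 1.6e-07), and CDK7, by 0.64. Of 10 tested other cyclins and kinases, 2 rose (20%) and 4 fell (40%), beside the same shares over all genes, with a median of -0.12. CCNG2, an unconventional cyclin, had 21.7 and 20.9 CPM in wogonin, against 79.4 and 82.0 CPM in DMSO (log2 fold change -1.92, edgeR adjusted p = 4.8e-11). CCNI fell by 0.78, while CCNY, a membrane-bound cyclin, rose by 0.78.

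Of 15 tested regulators of G1 gene transcription, 3 rose (20%) and 8 fell (53.3%), with a median of -0.27. Over all genes tested 32.3% were higher and 31.5% lower. FOXO3, a FOXO factor known to drive CDKN1B, had 28.2 and 28.6 CPM in wogonin, against 62.0 and 67.5 CPM in DMSO (log2 fold change -1.19, edgeR adjusted p = 1.1e-08). FOXO4, of the same family, had 5 and 8 exon reads in wogonin, against 83 and 86 in DMSO (edgeR adjusted p = 1.4e-07). Like CDKN1C, it passed the filter on low counts only through the DMSO libraries, where it is high, so it could enter the test only with a difference. STAT3, a cytokine-activated factor, rose by 0.80 on the log2 scale (edgeR adjusted p = 7.0e-08).

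**Figure D5:**
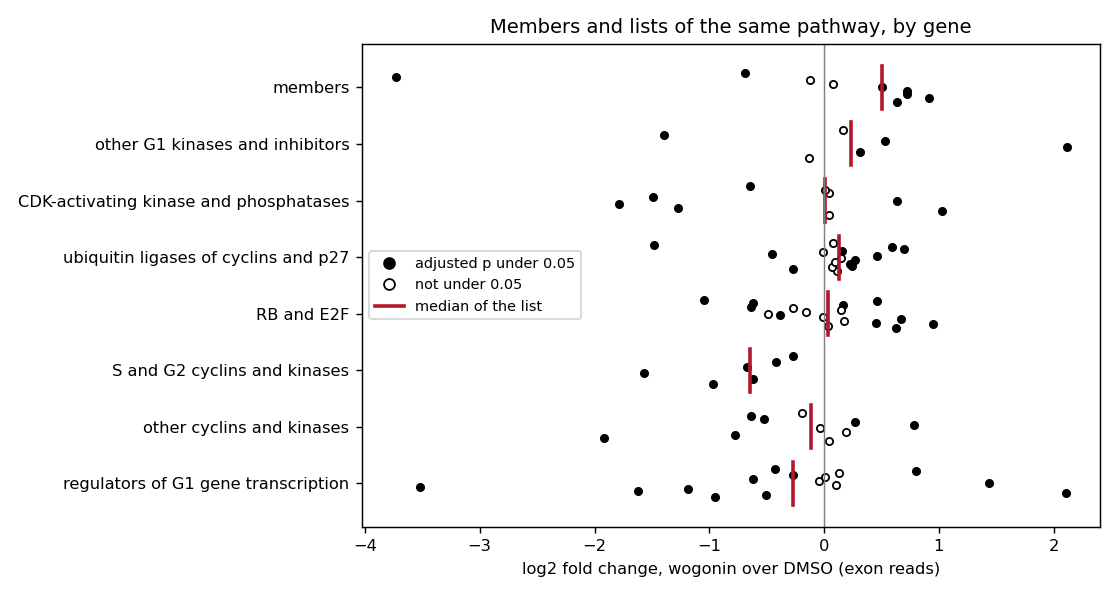
Log2 fold change of wogonin over DMSO in exon reads for the 9 tested members and for each tested gene of 7 lists of the same pathway; filled points have an adjusted p under 0.05 and the vertical bar is the median of the list. The S and G2 list lies wholly below 0, with a median of -0.64, while the other lists fall on both sides.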

How the data were processed

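The members and gene lists were chosen with earlier results of these data known. The authors deposited 1 table a library, with 57773 genes. Its columns, per the file headers, are counts of exon, junction and intron reads (total and uniquely placed), TPM and RPKM values, and the fraction of unique and of intron reads. The submitters' processing notes name GRCh37 and hg19; which aligner, counter, annotation and strand setting were used is not given in the sources used here, and antisense reads cannot be told apart. A Qiagen RNeasy kit and a SMARTER library kit were used, per the labels' protocols.

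Total exon counts were tested in edgeR 4.0.16 under R 4.3.3 (robust quasi-likelihood test, 2-sided, TMM scaling, filterByExpr for low counts), wogonin against DMSO, with p-values adjusted over all 13449 genes tested. Junction and intron counts were fitted in the same way (intron counts over genes with exons), and an interaction model with library as a block tested exon against intron change. TPM gave levels between genes and the sums over cyclins and inhibitors, and carry no TMM scaling. Alternatives included DESeq2 1.42.0 and limma 3.58.1. A mean ± SD is over 2 libraries. The fits were tested on simulated counts in which far fewer genes changed than were called here. Changes as broad as those in these data were not simulated. No 2 libraries were copies: chi-square per degree of freedom was 6.77 between wogonin libraries, 2.86 between DMSO libraries and 51.7 to 56.0 across groups. Reads carry no stated molecular identifiers, so an interval or floor covers counting error only. The text names all 10 members, the INK4 and Cip/Kip relatives and CDK4, and, per list, the up to 3 genes with the lowest adjusted p. USP2, CDC25A and CDK7 were named after their values were seen. CKS1B, RBL1 and PECAM1 of the lists were not analysed here.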

Additional observations from a re-analysis of the deposited data

How the results depend on the processing

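Alternatives were other scalings, filters, tests and count columns, an exon length trend removed and each library left out; junction reads, a GC trend removed and the newer quasi-likelihood method were chosen after seeing the data. The median over all genes was -0.09 with library totals alone and with upper-quartile scaling. The members called higher in exon reads numbered 4 or 5 throughout, CCNE2 being the call lost except in junction reads, where it was CCND2. Those called lower numbered 2 or 3, but 0 in junction reads. The share of all genes tested that was called higher moved as well. It was 32.3% in the main fit, 26.0% with DESeq2, 27.2% with library totals alone and 27.6% in junction reads. The share called lower was 31.5%, 23.8%, 37.0% and 28.0%, in the same order. CCND1, CCND3 and CCNE1 passed in the same direction in every alternative with all 4 libraries. They kept that direction when a library was left out. CDKN1C did likewise where it was tested. Under the main filter on low counts, however, it could enter only through the DMSO libraries, where it is high. In intron reads the members called lower numbered 2 in uniquely placed reads and 0 with exon totals and factors, and between 0 and 1 when a library was left out. The change of the CCND1 to CCND3 log2 ratio, wogonin minus DMSO, was -0.09 and ranged from -0.18 to 0.0070 when a library was left out. Genes of the ligase list called higher numbered 4 with DESeq2 and 3 with library totals alone, beside 26.0% and 27.2% of all genes tested. The CDK6 to CDK2 ratio was not computed, since CDK6 had no reads in 3 libraries. No paired analysis was possible because the groups share no replicate number. Depth limits CDK6, CDKN1C in wogonin and the intron counts.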
